A study of Mus musculus with 6 samples.

Results

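The 6 ADAM proteases that shed proteins from the cell surface, Adam8, Adam9, Adam10, Adam12, Adam15 and Adam17, were measured in sorted epidermal basal cells of pregnant and virgin mice. These 6 genes of the 18193 named on the array were covered by 15 probe sets, every one that the platform annotation assigned to a member alone. The members were chosen by family, with the higher Adam8 signal of 16 dpc ventral over virgin ventral cells already known, so the members' values in that comparison are a description, and no test there supports anything about a member. Of the 6 genes, 5 had a probe set detected in both arrays of at least 1 group and entered the fit of 10993 genes. Adam12 did not.

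Basal cells came from female C57BL/6 mice of 10 weeks, and 3 groups of 2 arrays each were compared: ventral skin at 16 days post coitum (16 dpc), dorsal skin at 16 dpc, and ventral skin of virgin mice. Single cells that carried α6-integrin and excluded propidium iodide were sorted after the skin had been trypsinised overnight in the cold, a gate that removes no other cell type carrying this integrin. No virgin dorsal cells were analysed here, which leaves the change of dorsal skin with pregnancy unmeasured. The study's design text says that the experiment was done 2 times, and no label states whether the 2 arrays of a group came from different animals, so the p-values cover the spread between samples alone, which may be a technical one. In sorted bulk cells, fewer cells of a type and less RNA per cell cannot be told apart.

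ADAM proteases are membrane-anchored metalloproteinases that cut other membrane proteins close to the cell surface and release their outer part, a step called shedding. They are made as inactive precursors, and many are activated by furin-like convertases. Partners carry some to the surface, such as the iRhom proteins (for ADAM17) and certain tetraspanins (for ADAM10). Some are blocked by tissue inhibitors of metalloproteinases. These steps do not apply to every member. In epidermis, shedding by ADAM17 supplies ligands of the EGF receptor, and ADAM10 makes the first cut of Notch receptors, after which γ-secretase cuts within the membrane.

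By its highest probe set, Adam8 varied most among the fitted members, in part through the difference for which it was known, and Adam17 least. The 250 bases before the RefSeq start used for each of these genes are printed as a description (RefSeq, GRCm38.p6). Any part of this sequence in the signals was not tested. The lines run 5′ to 3′ on the gene's strand, and capitals mark CCAAT (or ATTGG, its reverse strand) and the GC box GGGCGG (or CCGCCC). For Adam8 the window is chr7:139992563-139992812, minus strand, and RefSeq's entry for the gene also reaches further upstream than the start used. For Adam17 it is chr12:21373633-21373882, minus strand.
Adam8: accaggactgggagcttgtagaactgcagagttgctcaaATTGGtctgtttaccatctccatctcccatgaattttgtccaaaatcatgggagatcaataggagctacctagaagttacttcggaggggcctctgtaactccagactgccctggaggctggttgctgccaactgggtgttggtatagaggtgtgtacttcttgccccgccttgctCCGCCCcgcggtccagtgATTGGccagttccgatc
Adam17: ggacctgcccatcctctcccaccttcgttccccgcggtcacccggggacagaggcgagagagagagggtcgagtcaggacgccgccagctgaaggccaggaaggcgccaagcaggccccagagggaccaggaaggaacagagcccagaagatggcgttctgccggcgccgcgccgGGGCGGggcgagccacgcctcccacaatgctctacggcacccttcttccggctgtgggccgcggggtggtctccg

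The Adam8 window had 52.8% G or C and 6 CpG dinucleotides, close to the medians of 52.4% and 6 over 32536 promoter windows of the same length. It held 2 CCAAT boxes and 1 GC box. The Adam17 window had 70.4% G or C and 23 CpG dinucleotides, and 91.1% of all windows had a lower G and C content. It held 1 GC box and no CCAAT box. Entries were also found for Adam10 (chr9:70678732-70678981, plus strand; 74.0% G or C, 2 CCAAT boxes and 3 GC boxes, 2 of which overlap by 1 base) and Adam15 (chr3:89350029-89350278, minus strand; 62.0% G or C, 1 box of each kind). CCAAT occurred in 33.8% and GGGCGG in 33.0% of all windows. On either strand, none of the 4 windows contained the TATA box TATAAA, which 12.3% of all windows held. Likewise none held the AP-1 element TGANTCA (6.73% of windows), the STAT element TTCNNNGAA (7.04%) or the steroid receptor half-site letters AGAACA (16.0%). Adam9 and Adam12 were not among the 4 matched.

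The deposited signals share 1 trimmed mean, and a signal compares the same probe set between arrays only. Between 21285 and 24053 of 45101 probe sets were called present per array. Both 16 dpc replicate 2 arrays stood apart in the 3′ to 5′ signal ratio of actin, which rises as signal is lost towards the 5′ end of transcripts. It was 3.90 and 4.47, against 1.78 to 2.46 on the other 4 arrays. The same ratio of Gapdh stood less apart: 2.86 and 2.83, against 1.53 to 2.50 on the other 4. Replicates correlated at 0.972 to 0.977 across genes and arrays of different groups at 0.951 to 0.980, across genes that are not independent replicates. All 8 basal keratinocyte markers were present on every array.

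Adam8 encodes a protease first described in macrophages and carried by several myeloid cell types. Its single probe set (1416871_at) was present on all 6 arrays. The Adam8 signal was 986 and 998 on the 16 dpc ventral arrays, 497 and 612 on the 16 dpc dorsal arrays, and 289 and 284 on the virgin ventral arrays. The ventral arrays at 16 dpc were highest, the dorsal arrays intermediate and the virgin arrays lowest, with no overlap between the 3 groups. Group means were 992 ± 8.64, 555 ± 81.5 and 287 ± 3.21 in that order (SD, n = 2 each). Adam8 was the single member of 5 with this order, which 2.77% of all fitted genes showed. The order takes in the difference for which Adam8 was known, so the share is a description and no evidence about Adam8.

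The Adam8 signal of 16 dpc ventral cells was 3.46-fold that of virgin ventral cells, a log2 fold change of 1.79 (SE 0.19), and was 1.77 and 1.81 between arrays of the same replicate number. Between 16 dpc ventral and 16 dpc dorsal cells, which share the pregnancy but not the site, Adam8 was 1.80-fold higher (95% interval 1.32 to 2.44), a log2 fold change of 0.85 (SE 0.19). The difference was positive for both replicate numbers (0.99 and 0.70), but the limma adjusted p was 0.390 over all genes (unadjusted p = 0.00195). Between 16 dpc dorsal and virgin ventral cells the log2 fold change was 0.94 (SE 0.19; limma adjusted p = 0.259). These last comparisons each share a pair of arrays with the one that chose Adam8, and are therefore not independent of it. Neither passed the 5% false discovery threshold.

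**Figure D1:**
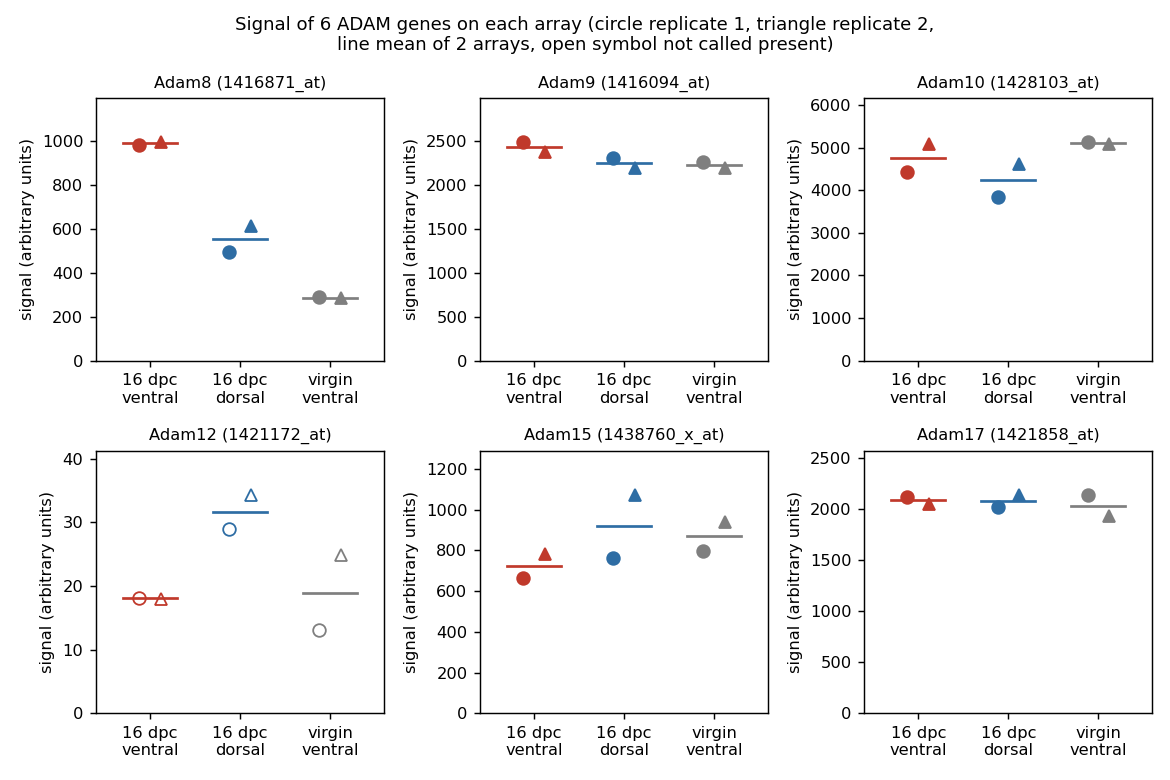
Signal of the highest probe set of each of the 6 ADAM genes (vertical axis, arbitrary units from 0) on each array, by group (horizontal axis), with circles for replicate 1, triangles for replicate 2, lines for the mean of 2 arrays and open symbols where not called present. Adam8 separates into 3 levels (986 and 998, 497 and 612, 289 and 284), whereas Adam9, Adam10, Adam15 and Adam17 stay within 1.62-fold over the 6 arrays, and Adam12 has open symbols alone.

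Adam17 encodes the protease that releases tumour necrosis factor and transforming growth factor α. Its highest probe set (1421858_at) gave 2117 and 2048 in 16 dpc ventral cells, 2021 and 2132 in 16 dpc dorsal cells, and 2137 and 1927 in virgin ventral cells. All 3 groups overlapped, and the highest array was 1.11-fold the lowest. The SD of its log2 signal over the 6 arrays was 0.06, and 0.564% of fitted genes had a smaller one, against 0.81 and 96.5% for Adam8. In 16 dpc ventral over 16 dpc dorsal cells the log2 fold change of Adam17 was 0.00 (95% interval -0.33 to 0.34; limma adjusted p = 1.0).

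Adam9 encodes a widely expressed member of the family also called meltrin γ. The Adam9 signal was 2488 and 2368 in 16 dpc ventral cells, 2301 and 2192 in 16 dpc dorsal cells, and 2255 and 2188 in virgin ventral cells. Both 16 dpc ventral arrays lay above the 4 others, by little, and the dorsal and virgin arrays overlapped. Its highest array was 1.14-fold its lowest, and 1.46% of fitted genes had a smaller SD (0.07 on the log2 scale). The log2 fold change was 0.13 (SE 0.14) over virgin ventral cells and 0.11 over 16 dpc dorsal cells (95% interval -0.21 to 0.44; limma adjusted p = 1.0).

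Adam10 encodes the protease that acts on Notch receptors and E-cadherin. Its highest probe set (1428103_at) gave 4433 and 5092 in 16 dpc ventral cells, 3835 and 4622 in 16 dpc dorsal cells, and 5132 and 5092 in virgin ventral cells. The virgin arrays were both above the dorsal arrays, and the ventral arrays at 16 dpc overlapped the dorsal group, with the higher one just under the lower virgin array. Adam10 averaged 4762 ± 466, 4228 ± 556 and 5112 ± 28.8 in these groups in the same order (SD, n = 2 each). The log2 fold change was 0.17 in 16 dpc ventral over 16 dpc dorsal cells (95% interval -0.19 to 0.53; limma adjusted p = 1.0) and -0.28 in 16 dpc dorsal over virgin ventral cells (SE 0.16; limma adjusted p = 0.711).

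A further Adam10 probe set (1450105_at) gave 334 and 224 in 16 dpc ventral cells, 244 and 275 in 16 dpc dorsal cells, and 155 and 277 in virgin ventral cells. All groups overlapped there, and the log2 fold change in 16 dpc ventral over virgin ventral cells was 0.40 (SE 0.35), of opposite sign to the -0.11 (SE 0.16) of the highest probe set. The ratio of 1450105_at to 1428103_at was 0.0440 to 0.0595 on the 16 dpc replicate 2 arrays, within the 0.0302 to 0.0754 of the other 4. The remaining Adam10 probe sets, 1450104_at and 1460083_at, were absent on all 6 arrays.

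Adam15 encodes a member whose human protein carries an integrin-binding RGD motif. The detected probe set (1438760_x_at), whose suffix marks probes that can bind other transcripts, gave 663 and 782 in 16 dpc ventral cells, 762 and 1073 in 16 dpc dorsal cells, and 799 and 941 in virgin ventral cells. The 16 dpc ventral arrays were both below the virgin arrays and overlapped the dorsal ones. Its log2 fold change was -0.27 (SE 0.22) over virgin ventral cells and -0.33 over 16 dpc dorsal cells (95% interval -0.82 to 0.16; limma adjusted p = 1.0). The last value was 0.26 with the mean of all Adam15 probe sets. Probe sets 1416080_at and 1454206_a_at were present on 2 arrays each, and 1425170_a_at on none.

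Adam12 encodes meltrin α, known from muscle and mesenchymal cells. Both of its probe sets were called absent on all 6 arrays. Signals of 1421172_at were 18.1 and 18.0 in 16 dpc ventral cells, 29.0 and 34.4 in 16 dpc dorsal cells, and 13.1 and 24.9 in virgin ventral cells, and 1421171_at reached at most 23.2. As neither probe set was detected, no fold change is given.

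Of the 15 member probe sets, 8 were present on all 6 arrays, 2 on 2 arrays and 5 on none. Among the 5 fitted genes, 1 member (Adam8) was past the threshold in 16 dpc ventral over virgin ventral cells, beside 0.200% of all genes. This restates the value for which Adam8 was known and is no evidence of its own. In 16 dpc ventral over 16 dpc dorsal cells 0 members passed, beside 0.0819% of all genes, and in 16 dpc dorsal over virgin ventral cells 0 members passed, beside 0% of all genes. Adam8 was the 1 member with a limma unadjusted p under 0.05 in each of the last 2, beside 559 and 799 of all 10993 genes. In a fit of 23017 probe sets, 0 of the 8 member probe sets passed in any comparison, beside 0% of probe sets in 16 dpc ventral over virgin ventral cells, 0.00434% in 16 dpc ventral over 16 dpc dorsal cells and 0% in 16 dpc dorsal over virgin ventral cells. In the last 2 of these, 1 member probe set, that of Adam8, had a limma unadjusted p under 0.05, beside 777 and 1480 of the 23017 probe sets.

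Counted by overlap, 2 of the 5 fitted members (Adam8 and Adam9) had both 16 dpc ventral arrays above both virgin ventral arrays, beside 23.8% of all genes. The same 2 had both 16 dpc ventral arrays above both 16 dpc dorsal arrays, beside 13.1%, and Adam8 alone had both 16 dpc dorsal arrays above both virgin ventral arrays, beside 24.3%. In the other direction, Adam10 and Adam15 had both 16 dpc ventral arrays below both virgin ventral arrays, beside 19.8% of all genes, no fitted member had them below both 16 dpc dorsal arrays, beside 19.7%, and Adam10 had both 16 dpc dorsal arrays below both virgin ventral arrays, beside 13.6%. The median log2 fold change of the 5 members was 0.04, 0.11 and 0.03 in the comparisons in that order, against 0.02, -0.03 and 0.07 over all fitted genes. The known Adam8 difference fixed its place in the first of these counts. The other counts and the medians share arrays with that comparison, so all of them are a description and no evidence about the members.

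**Figure D2:**
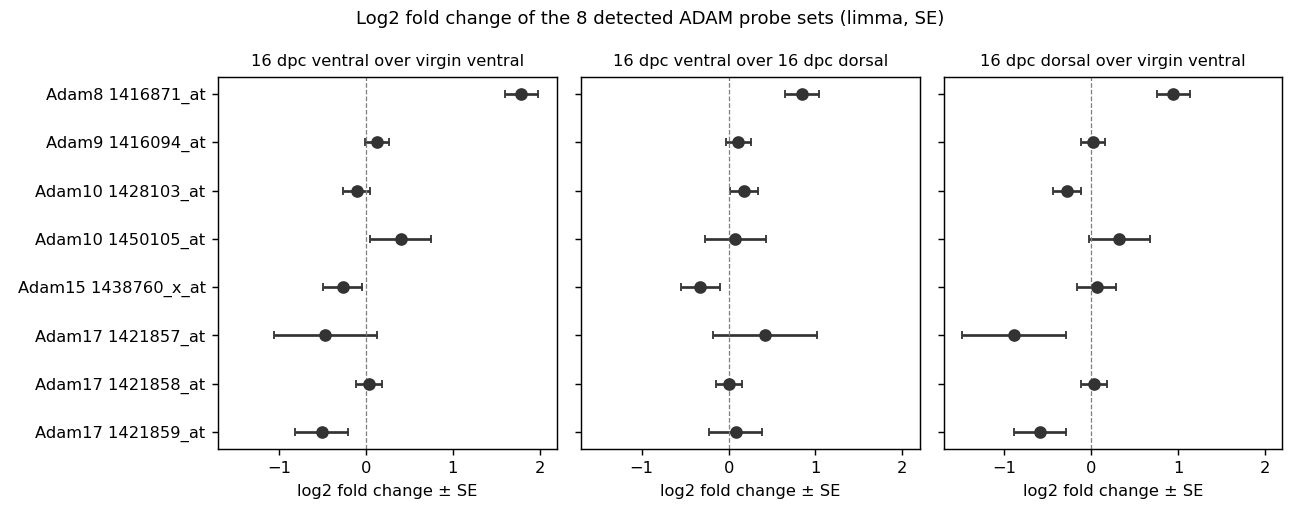
Log2 fold change (horizontal axis) of the 8 ADAM probe sets present on all arrays, 1 row each, in the 3 comparisons, with points for the fitted value and bars for its SE. The Adam8 point lies at 1.79, 0.85 and 0.94, while every other probe set lies between -0.89 and 0.42 with wider bars on Adam17 1421857_at (SE 0.59).

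The 3 Adam17 probe sets were present on all arrays and did not move alike. Probe set 1421859_at gave 1133 and 599 in 16 dpc ventral cells, 854 and 710 in 16 dpc dorsal cells, and 1248 and 1104 in virgin ventral cells. Probe set 1421857_at gave 288 and 99.8 in 16 dpc ventral cells, 200.5 and 80.0 in 16 dpc dorsal cells, and 249 and 221 in virgin ventral cells. In both, replicate 2 of each 16 dpc group was the lower array, and both 16 dpc dorsal arrays lay below both virgin ventral arrays.

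The ratio of the 1421857_at to the 1421858_at signal was 0.0375 to 0.0487 on both 16 dpc replicate 2 arrays and 0.0992 to 0.136 on the other 4. For 1421859_at over 1421858_at it was 0.292 to 0.333 on those arrays and 0.423 to 0.584 on the other 4. Over the 6 arrays the highest signal was 3.59-fold the lowest for 1421857_at and 2.08-fold for 1421859_at. The 16 dpc replicate 2 arrays had actin 3′ to 5′ ratios of 3.90 and 4.47, and the part of this loss of 5′ signal in the Adam17 values was not tested. The log2 fold change in 16 dpc ventral over virgin ventral cells was -0.51 (SE 0.30) for 1421859_at and -0.47 (SE 0.59) for 1421857_at, against 0.04 (SE 0.15) for 1421858_at. Within replicate 1 the value of 1421857_at was 0.21, and within replicate 2 it was -1.14.

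**Figure D3:**
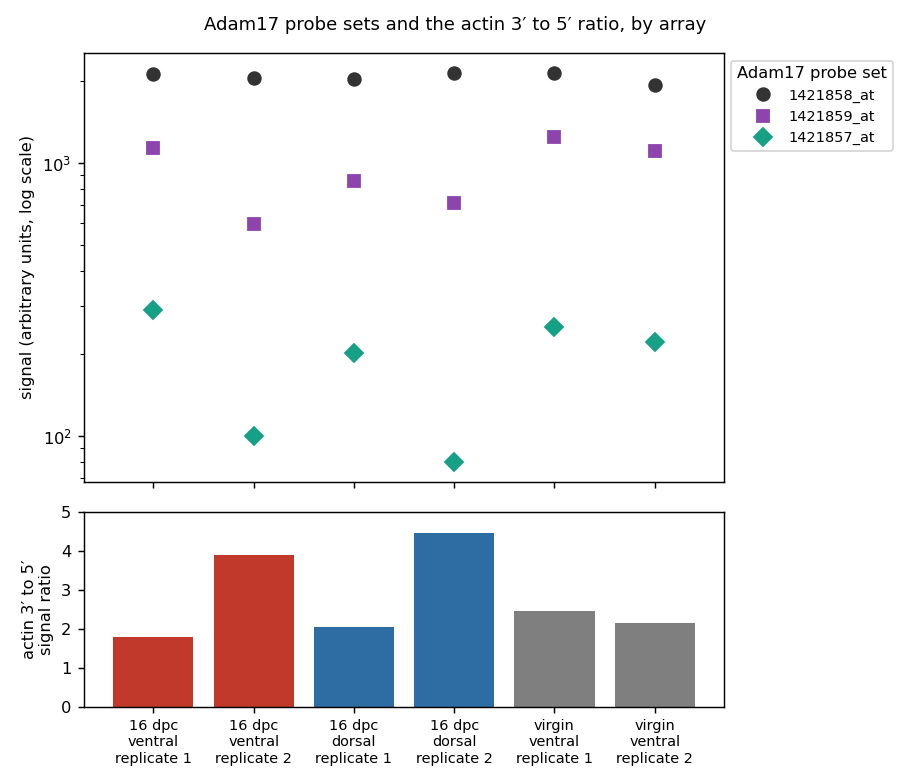
Upper panel, signal of the 3 Adam17 probe sets (arbitrary units, log scale) on each of the 6 arrays. Lower panel, bars of the actin 3′ to 5′ signal ratio of the same arrays. Probe set 1421858_at stays between 1927 and 2137, whereas 1421857_at is at 99.8 and 80.0 on the 16 dpc replicate 2 arrays, the arrays with actin ratios of 3.90 and 4.47.

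Of 26 other ADAM family genes, 21 had a probe set, and for 0 of them was the highest one detected on both arrays of a group. Over all 30 probe sets of these genes, 16 genes were present on no array, Adam5, Adam18 and Adam19 on 1 array and Adam28 on 3. A dimmer probe set of Adam23, 1 of its 3, was present on 4 arrays and was the only one of the 30 detected on both arrays of a group.

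Partners and activating proteases comprised 14 genes, of which 11 were fitted and 0 passed in any comparison. Tspan5, a tetraspanin that carries ADAM10, gave 1315 and 1423 in 16 dpc ventral cells, 2029 and 1476 in 16 dpc dorsal cells, and 2163 and 1931 in virgin ventral cells. Its log2 fold change was -0.58 in 16 dpc ventral over virgin ventral cells (limma adjusted p = 0.290). Rhbdf2, which encodes iRhom2, the partner of ADAM17, had -0.59 (limma adjusted p = 0.358) and Furin, a convertase, -0.48 (limma adjusted p = 0.368). Tspan17, another tetraspanin partner of ADAM10, had -0.67 in 16 dpc ventral over 16 dpc dorsal cells (limma adjusted p = 0.896). The median of the 11 was -0.15 in 16 dpc ventral over virgin ventral cells and -0.10 in 16 dpc ventral over 16 dpc dorsal cells.

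Among 5 inhibitor genes, Timp3, whose product blocks ADAM17, was the 1 fitted. Timp3 gave 917 and 783 in 16 dpc ventral cells, 1058 and 851 in 16 dpc dorsal cells, and 729 and 1667 in virgin ventral cells. The virgin arrays lay below and above all the others. By the highest probe set of each gene, Timp1 was present on 1 array, Timp2 on 3, and Timp4 and Reck on none. Of 7 γ-secretase subunit genes, 5 were fitted and 0 passed, with a median log2 fold change of -0.49 in 16 dpc ventral over virgin ventral cells and -0.03 in 16 dpc ventral over 16 dpc dorsal cells. Psen2, a catalytic subunit, gave 260 and 127 in 16 dpc ventral cells, 267 and 113 in 16 dpc dorsal cells, and 229 and 297 in virgin ventral cells. Aph1b gave 1046 and 490 in 16 dpc ventral cells, 1046 and 508 in 16 dpc dorsal cells, and 1441 and 1125 in virgin ventral cells. In both genes the lowest arrays were the 16 dpc replicate 2 arrays of high actin 3′ to 5′ ratio, whose part in the list's median was not tested.

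Genes for substrates were listed in 4 groups, of which 6, 6, 11 and 14 genes were fitted. The lists were chosen with earlier results of these data known. In 16 dpc ventral over virgin ventral cells 2 substrate genes, L1cam and Csf1r, passed, beside 0.200% of all genes. In 16 dpc ventral over 16 dpc dorsal and 16 dpc dorsal over virgin ventral cells 0 passed, beside 0.0819% and 0% of all genes. L1cam, an adhesion molecule shed by ADAM10, gave 1243 and 1277 in 16 dpc ventral cells, 1493 and 1637 in 16 dpc dorsal cells, and 2560 and 2749 in virgin ventral cells. The 3 groups did not overlap. L1cam was lower in 16 dpc ventral than in virgin ventral cells, with a log2 fold change of -1.07 (limma adjusted p = 0.0396). It was -0.39 with the mean of all L1cam probe sets (limma adjusted p = 0.860). Without 16 dpc ventral replicate 1, 16 dpc ventral replicate 2, virgin ventral replicate 1 or virgin ventral replicate 2 its limma adjusted p was 0.139, 0.194, 0.0968 and 0.223.

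Csf1r, the receptor of macrophages and Langerhans cells for colony-stimulating factor 1, is cut by ADAM17. Csf1r gave 1190 and 958 in 16 dpc ventral cells, 1114 and 956 in 16 dpc dorsal cells, and 399 and 250 in virgin ventral cells. Both 16 dpc groups were above the virgin arrays and overlapped each other. With the mean of all Csf1r probe sets, the log2 fold change in 16 dpc ventral over virgin ventral cells was 1.30 (limma adjusted p = 0.244). With the highest probe set it was 1.76 in that comparison (limma adjusted p = 0.0406) and 0.05 in 16 dpc ventral over 16 dpc dorsal cells. In 16 dpc dorsal over virgin ventral cells it was 1.71 (limma adjusted p = 0.0954), and passed with the replicate number as a block (0.0160) and, at 1.82, without both 16 dpc replicate 2 arrays (0.00134). The limma adjusted p of the first comparison was 0.139, 0.136 and 0.190 without 16 dpc ventral replicate 1, 16 dpc ventral replicate 2 and virgin ventral replicate 2. Over all 15 alternatives of 16 dpc ventral over virgin ventral cells L1cam passed in 9 and Csf1r in 7, and without a variance trend neither passed (limma adjusted p = 0.161 for both).

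Of 8 ligand genes of the EGF receptor family, 6 were fitted and 0 passed, with a median log2 fold change of -0.76 in 16 dpc ventral over virgin ventral cells and -0.09 in 16 dpc ventral over 16 dpc dorsal cells. In each of these comparisons 2 of the 6 had a positive value. Btc (betacellulin) gave 59.4 and 72.3 in 16 dpc ventral cells, 85.3 and 98.7 in 16 dpc dorsal cells, and 144 and 153 in virgin ventral cells. The groups did not overlap, and the log2 fold change over virgin ventral cells was -1.18 (limma adjusted p = 0.248). Hbegf gave 137 and 51.9 in 16 dpc ventral cells, 149 and 48.5 in 16 dpc dorsal cells, and 367 and 283 in virgin ventral cells. The virgin arrays were highest, and the lowest values were on the 16 dpc replicate 2 arrays, of which the ventral one was not called present (log2 fold change -1.93; limma adjusted p = 0.262). Ereg (epiregulin) had -1.56 (limma adjusted p = 0.259). Tgfa, the ADAM17 substrate named above, had 0.45 (limma adjusted p = 0.485).

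Of 8 Notch receptor and ligand genes, 6 were fitted and 0 passed, with medians of -0.27 in 16 dpc ventral over virgin ventral cells and -0.09 in 16 dpc ventral over 16 dpc dorsal cells. Notch3 had the smallest p among them over virgin ventral cells, with 1830 and 1739 in 16 dpc ventral cells against 2272 and 2619 in virgin ventral cells (log2 fold change -0.45; limma adjusted p = 0.310).

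Of 14 genes for shed adhesion molecules, 11 were fitted and 1, L1cam, passed. Icam1, which binds leukocyte integrins, gave 1873 and 2029 in 16 dpc ventral cells, 763 and 1608 in 16 dpc dorsal cells, and 952 and 914 in virgin ventral cells. The 16 dpc ventral arrays were above all the others, as for Adam8, and the log2 fold change was 0.82 over 16 dpc dorsal cells (limma adjusted p = 0.815) and 1.06 over virgin ventral cells (limma adjusted p = 0.248). Cd44, the hyaluronan receptor, gave 8277 and 9012 in 16 dpc ventral cells, 4817 and 6695 in 16 dpc dorsal cells, and 4818 and 6208 in virgin ventral cells. Its groups showed the same separation, with 0.60 over 16 dpc dorsal cells (limma adjusted p = 0.766).

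Of 17 cytokine and receptor genes, 14 were fitted and 1, Csf1r, passed. Il1r2, the interleukin 1 decoy receptor, gave 8960 and 10534 in 16 dpc ventral cells against 6334 and 6259 in 16 dpc dorsal cells, a log2 fold change of 0.63 (limma adjusted p = 0.416). Il6ra, the interleukin 6 receptor, gave 3534 and 2174 in 16 dpc ventral cells, 3069 and 2126 in 16 dpc dorsal cells, and 5987 and 5028 in virgin ventral cells. Both 16 dpc groups were below the virgin arrays, with a log2 fold change of -0.99 for ventral (limma adjusted p = 0.232) and -1.10 for dorsal cells (0.360). The lowest Il6ra values were on the 16 dpc replicate 2 arrays of high actin 3′ to 5′ ratio, whose part in them was not tested. Kitl, the ligand of the Kit receptor, gave 235 and 254 in 16 dpc ventral cells against 386 and 638 in 16 dpc dorsal cells, -1.02 on the log2 scale (limma adjusted p = 0.556). The highest probe sets of Tnf, Erbb4 and Fcer2a (CD23, a known ADAM8 and ADAM10 substrate) were present on no array. Over the 54 fitted genes of partners, inhibitors, γ-secretase and substrates, 1 was higher and 1 lower in 16 dpc ventral over virgin ventral cells, beside the 15 higher and 7 lower of all 10993 genes. Their median log2 fold change was -0.20 there and -0.07 over 16 dpc dorsal cells.

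**Figure D4:**
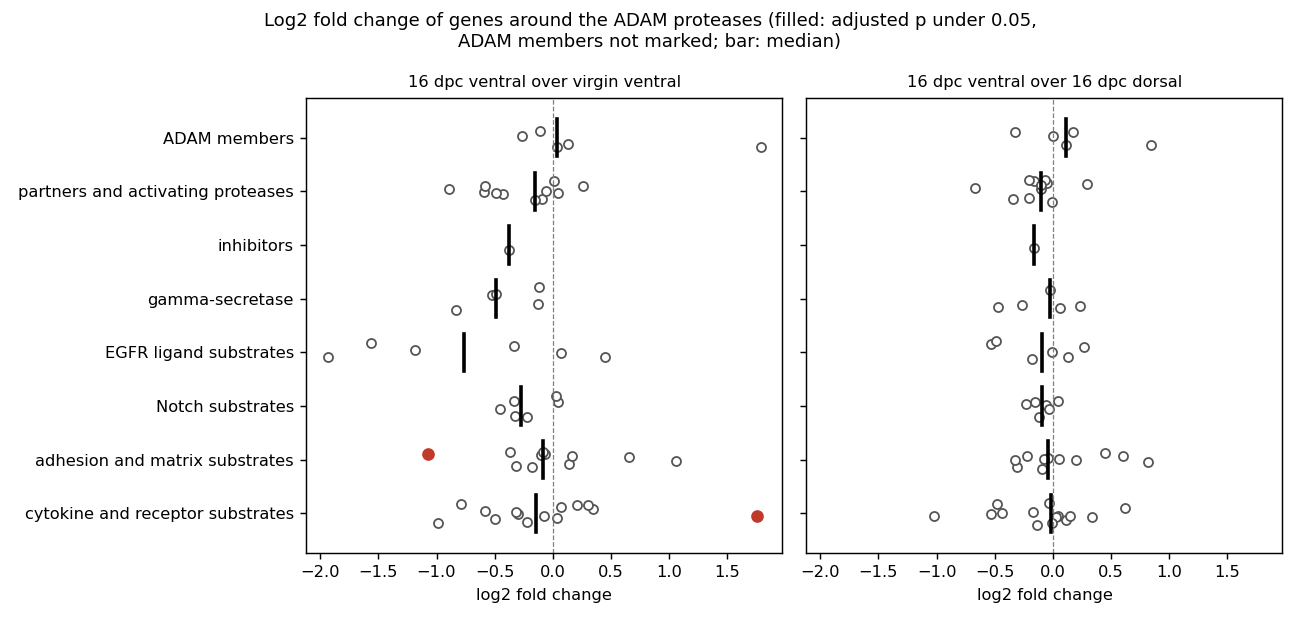
Log2 fold change (horizontal axis) of the ADAM members and of fitted genes around them, by list (rows), in 16 dpc ventral over virgin ventral (left) and over 16 dpc dorsal cells (right), with 1 circle per gene, filled where the adjusted p was under 0.05 (ADAM members are not marked), and a bar for the median of each list. Csf1r (1.76) and L1cam (-1.07) are filled on the left, and 0 genes are filled on the right.

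Genes whose log2 signal followed each member most closely over the 6 arrays were picked by Pearson's r as a description, from 10993 genes and 6 arrays that share groups and depth. For Adam8 these were Bccip (r = 0.992), Sod1 (0.989), Atp5b (0.986), Il4ra (0.986) and Thy1 (0.983). Thy1 had larger and Il4ra smaller differences than Adam8, with log2 fold changes of 3.07 and 1.39 in 16 dpc ventral over virgin ventral cells and 1.06 and 0.69 over 16 dpc dorsal cells. Bccip, the closest by r, had 0.23 and 0.13. The closest gene was Nif3l1 for Adam9 (0.994), Rpl37 for Adam10 (0.996), Oprk1 for Adam15 (0.995) and Acad10 for Adam17 (0.987).

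Markers of other cells moved with Adam8 in part. The summed signal of 14 Langerhans and myeloid cell markers was 6005 to 8769 in 16 dpc ventral cells, 7793 to 8557 in 16 dpc dorsal cells and 3196 to 4684 in virgin ventral cells, and 7 of the 14 were present on all arrays. Of all 14, detected or not, 11 had both 16 dpc ventral arrays above both virgin ventral arrays, beside 23.8% of all fitted genes. The other 3 overlapped and 0 were below. In 16 dpc dorsal over virgin ventral cells 13 were above, beside 24.3%, and 1 overlapped. Of the 12 markers fitted, 0 passed the threshold in any comparison. Against 16 dpc dorsal cells, 1 (Itgax) was higher, 3 (Lyz2, Laptm5 and Mpeg1) were lower and 10 overlapped. Of all fitted genes, 13.1% were higher and 19.7% lower there by this measure. By its highest probe set Cd207, which marks Langerhans cells, gave 304 and 186 in 16 dpc ventral cells and 250 and 176 in 16 dpc dorsal cells. It gave 129 and 33.1 in virgin ventral cells, where this probe set was absent on both arrays. The sums of both virgin arrays lay below those of all 16 dpc arrays, and the sums of the sites overlapped. The part of these cells in the Adam8 and Csf1r values was not tested in any comparison.

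For the markers that follow, presence is that of the highest probe set of each gene. Epidermal T cell markers summed to 336 to 378 in 16 dpc ventral cells, 433 to 658 in 16 dpc dorsal cells and 246 to 298 in virgin ventral cells, with Cd3e, Cd3d, Cd7 and Ptprcap present on no array. Neutrophil markers summed to 258 to 322, 168 to 332 and 320 to 610 in the same order of groups, with S100a9, Csf3r, Cxcr2 and Mpo present on none. All 4 mast cell and all 4 endothelial markers were present on no array. Fibroblast markers summed to 1074 to 1386 in 16 dpc ventral cells, 952 to 997 in 16 dpc dorsal cells and 817 to 1014 in virgin ventral cells, with Col1a2, Lum and Pdgfra present on none. Of the 8, Vim was higher in 16 dpc ventral than in virgin ventral cells, Dcn and Lum were lower and 5 overlapped. Among all fitted genes, 23.8% were higher and 19.8% lower there by this measure. The part of fibroblasts in the Adam8 values was not tested. Suprabasal keratinocyte markers, all 7 present on every array, summed to 90458 to 98257, 93816 to 110708 and 108963 to 109417 in that order of groups.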

How the data were processed

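RNA of basal cells sorted for α6-integrin was hybridised to 6 mouse 3′ expression arrays of Affymetrix, 2 for each of 16 dpc ventral, 16 dpc dorsal and virgin ventral skin, grouped by the sample labels. The authors deposited a linear signal intensity and a detection call per probe set, made per the submitters' processing notes with Affymetrix Expression Console version 1. The deposited intensities behave as MAS5 output scaled to 1 trimmed mean (500.003 with 2% trimmed on each array), so the values are relative within an array. The value table of the series held the same signals to a relative difference of at most 5.00e-06. For the genome build, none is given in the sources used here. The gestation day of the labels was used, although column headers name one that differs slightly.

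Signals were floored at 1 and log2-transformed. Of 45101 probe sets, 64 were controls, 34945 named 1 gene, 932 several and 9160 none in the platform annotation, and all 6 members matched RefSeq by gene number. Each gene was represented by its probe set of highest mean log2 signal, kept if both arrays of any 1 group called it present. Groups were compared with limma 3.58.1 (lmFit, eBayes with a variance trend, 3 residual degrees of freedom) in R 4.3.3, with 2-sided p-values adjusted by Benjamini-Hochberg over all 10993 genes at 0.05, and likewise over 23017 probe sets. The fit was tested on simulated data. Only 2 arrays a group limit the precision, and array signals give no count depth.

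All members and every probe set of theirs were named, and of each list the genes past the threshold and up to 4 by smallest p in the first 2 comparisons were candidates for naming. The 3 genes closest by correlation (5 for Adam8) were taken. Members, lists and tests were chosen with earlier results of these data known. Alternatives were a replicate block, no variance trend, quantile normalization, log2(signal + 16), no detection filter, detection on all 6 arrays, the mean of a gene's probe sets, no probe sets with a cross-hybridisation suffix, no 16 dpc replicate 2 arrays, and each array left out in turn.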

Additional observations from a re-analysis of the deposited data

How the results depend on the processing

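The count of ADAM members past the threshold in 16 dpc ventral over virgin ventral cells (1, for which Adam8 was known and which supports nothing) was 0 without a variance trend and 0 to 1 with each array left out in turn. It was 0 without 16 dpc ventral replicate 1, 16 dpc ventral replicate 2, virgin ventral replicate 1 or virgin ventral replicate 2, fits with fewer samples, and 1 under the other alternatives. The Adam8 log2 fold change stayed between 1.74 and 1.86 there, between 0.70 and 0.997 in 16 dpc ventral over 16 dpc dorsal cells, and between 0.79 and 1.09 in 16 dpc dorsal over virgin ventral cells. In the last 2 comparisons it passed the threshold in 0 of 15 alternatives (limma adjusted p 0.202 to 1.0 and 0.111 to 0.960). The count of ADAM probe sets past the threshold in 16 dpc ventral over virgin ventral cells, 0, was 1 without both 16 dpc replicate 2 arrays, and the cause was not tested.

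Some values of Adam9, Adam15 and Adam17 changed sign, none of them past the threshold in either direction, and the cause was not tested. With the mean of all probe sets, which takes in probe sets that were not detected, the log2 fold change was -0.31 for Adam17 in 16 dpc ventral over virgin ventral cells, 0.26 for Adam15 in 16 dpc ventral over 16 dpc dorsal cells (-0.33 with its highest probe set), and -0.54 for Adam15 and -0.48 for Adam17 in 16 dpc dorsal over virgin ventral cells. In that last comparison Adam9 was -0.0028 after quantile normalization, and without both 16 dpc replicate 2 arrays Adam15 was -0.19 and Adam17 -0.0061. With single arrays left out, Adam17 had a lowest and highest value of -0.038 and 0.11 in 16 dpc ventral over virgin ventral cells, and of -0.034 and 0.043 in 16 dpc ventral over 16 dpc dorsal cells (-0.019 without 16 dpc ventral replicate 1). In 16 dpc dorsal over virgin ventral cells the lowest and highest values were -0.019 and 0.051 for Adam9 (-0.0060 without virgin ventral replicate 2), -0.19 and 0.31 for Adam15 (-0.058 without virgin ventral replicate 1), and -0.042 and 0.11 for Adam17 (-0.0061 without 16 dpc dorsal replicate 2). Adam15 had no value without probe sets of a cross-hybridisation suffix.

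The experiment was done 2 times per the design text, and in the column headers arrays of equal number carry a common prefix of unstated meaning. Same-numbered arrays of the 2 16 dpc groups deviated together (correlation 0.448 across 10993 genes), but those of virgin ventral cells did not deviate with either (0.00688 and 0.0289), so no pairing was used for the values reported. With the replicate number as a block, 1 member was past the threshold in 16 dpc ventral over virgin ventral cells and 0 in the other comparisons, and the Adam8 adjusted p was 0.202 and 0.130 there (limma). Of the pathway genes, the block called 1 higher and 2 lower in 16 dpc ventral over virgin ventral cells, 0 in 16 dpc ventral over 16 dpc dorsal cells and 1 higher, Csf1r, in 16 dpc dorsal over virgin ventral cells. Over all genes it gave 86, 16 and 11 calls, against 22, 9 and 0 without it. The counts over all genes also moved to 0 without a variance trend, 5 with the mean of probe sets, 11 without suffixed probe sets and 115 without both 16 dpc replicate 2 arrays in 16 dpc ventral over virgin ventral cells, and to 1 to 59 with an array left out. In 16 dpc ventral over 16 dpc dorsal cells they were 1, 0 and 24 without a variance trend, with the mean of probe sets and without both arrays, and 0 to 7 with an array left out. In 16 dpc dorsal over virgin ventral cells they were 7 with quantile normalization, 7 with log2(signal + 16), 62 without both arrays, and 0 to 33 with an array left out.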
